A study of Mus musculus with 10 samples.

Results

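Developmental basic helix-loop-helix (bHLH) transcription factors outside the set that marks cortical glutamatergic neurons were examined in mouse cerebral cortex. The 50 members were taken by symbol from the 55487 genes of the deposited table, with no minimum level, so that factors close to silent in control cortex were kept. The library labels give 5 mice of genotype Usp7 WT; Trp53+/- and 5 of genotype Usp7 cKO; Trp53+/-, all at postnatal day 18. The conditional knockout (cKO) came from floxed Usp7 (Usp7 fl/fl) combined with NEX-cre, which the labels describe as acting in glutamatergic neurons, and cortex also holds cells outside the reach of this Cre. Loss of 1 Trp53 allele was common to both genotypes. The design pairs the mice by litter and sex, but the pairs are not named in the labels. USP7 is a deubiquitinase, an enzyme that takes ubiquitin off other proteins.

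bHLH factors bind DNA as dimers at the short E-box motif. Most tissue-specific members pair with a widely expressed E protein and switch on a lineage program: Neurogenins and Atonal factors start neuronal differentiation, MyoD factors start muscle, Mesp and Twist factors act in mesoderm, and Tal1 and Lyl1 act in blood and endothelium. Id proteins lack the DNA-binding region and hold E proteins inactive. Among the Hes and Hey repressors, Hes1, Hes5 and Hey1 are classical targets of Notch signalling. In postnatal cortex the Id, Hes and Hey factors are best known from glia, progenitors and vessels.

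Values are TPM, a length-corrected level that adds up to the same total in every library. Total exon-bin counts ran from 42628526 to 51797145 per library. Usp7, the targeted gene, averaged 53.9 ± 5.32 TPM in controls and 36.9 ± 3.96 TPM in the knockout (SD, n = 5 each), and no cKO library reached the WT range. Neurod6, the gene whose locus carries NEX-cre, averaged 52.1 ± 1.97 TPM in controls and 24.2 ± 2.45 TPM in the knockout. It is itself a bHLH gene and was lower in every cKO library than in any WT library. Lower Neurod6 and lower Usp7 therefore cannot be told apart in the members' changes. In 2 libraries, Usp7 WT replicate 2 and Usp7 cKO replicate 1, the sex-linked transcripts went against the labelled sex. By those transcripts WT replicates 2, 3 and 4 and cKO replicate 4 were male, and the other libraries were female. Sex by transcripts was thus not balanced between genotypes, and labelled sex as covariate does not adjust for that. Library identifiers in the file headers run in genotype order, so that order and genotype cannot be told apart. In bulk tissue, fewer cells of a type and less RNA per cell cannot be told apart either.

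Of the 50 members, 15 were higher in Usp7 cKO cortex and 0 were lower at an adjusted p under 0.05 (limma on log2(TPM + 0.5), labelled sex as covariate, Benjamini-Hochberg over all genes tested). These 15 came from 29 members that averaged 0.5 TPM or more over the 10 libraries. The share of all 27580 tested genes called higher was 9.22%, and the share called lower was 4.67%. All 50 members are protein-coding, and of the 15232 tested protein-coding genes 12.6% were higher and 7.0% lower. Bhlhe23, Mesp1, Tcf24 and Twist2 passed the minimum only through their Usp7 cKO libraries, so they had to differ, and the share of tested members is not read as support. Without any minimum all 50 members were tested, and 14 were higher and 0 lower, against 5.18% of all genes higher and 2.49% lower. The median change of all 50 was then 0.28 on the log2 scale, beside 0.04 for all genes. The members were chosen with earlier results of these data known. Comparisons of their counts with all genes, here and below, are therefore description only and not read as support. None of the members was lower at an unadjusted p under 0.05 either, and edgeR and DESeq2 on summed exon-bin counts called 0 lower, against 13.9% and 13.2% of their tested genes, and 18 and 19 higher, against 14.1% and 11.4%. Across the table the direction of calls depended on the scaling: 66.4% of calls were higher by TPM, 46.8% with TPM rescaled to median-of-ratios factors, 50.3% by edgeR and 46.4% by DESeq2.

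**Figure D1:**
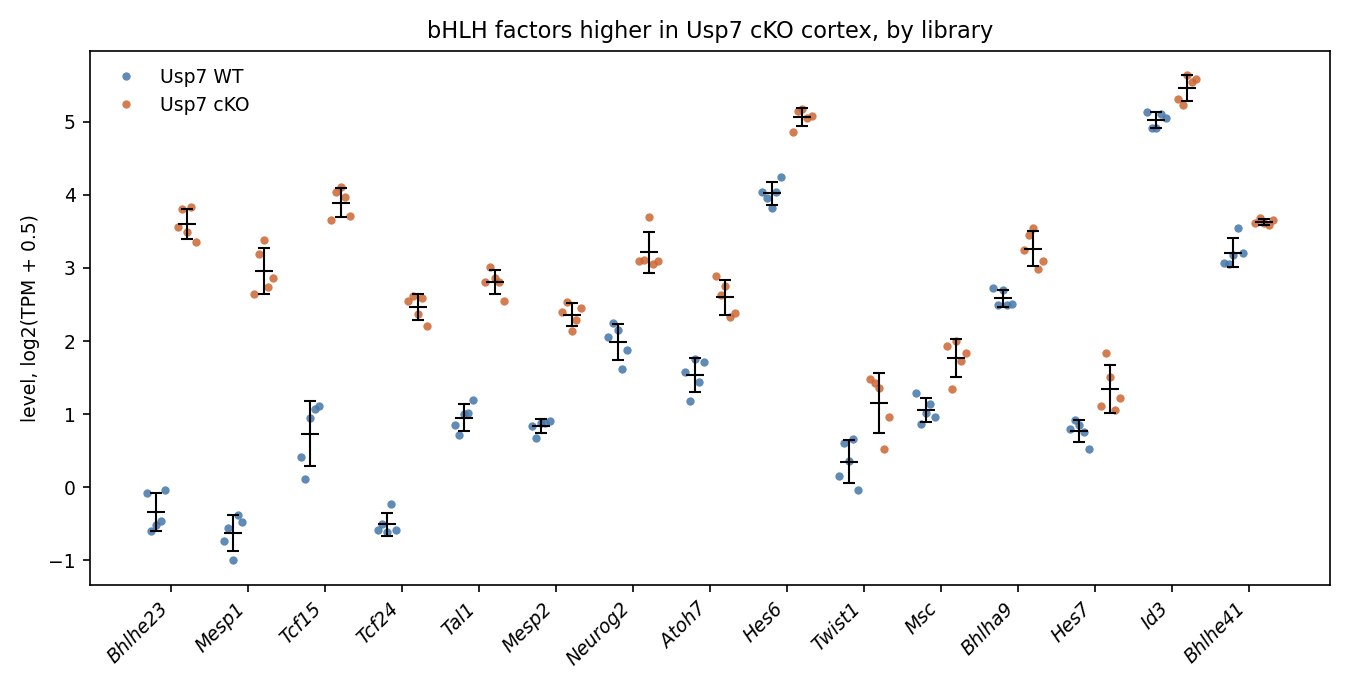
Level of the 15 members called higher, as log2(TPM + 0.5) on the vertical axis, with 1 point per library, blue for Usp7 WT and orange for Usp7 cKO (n = 5 each), and black marks for mean and SD. Genes run from the largest change on the left, Bhlhe23 (3.95), to the smallest on the right, Bhlhe41 (0.42), and Twist1 is the member whose groups overlap.

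In 14 of the 15 every Usp7 cKO library lay above every Usp7 WT library. Counted over all 50 members, tested or not, groups separated upward in 16 and downward in 1, Neurod4. Of all 55487 genes of the table, 4.5% separated upward and 2.39% downward, and of the tested genes alone 8.19% and 4.58%. Calls were made in 3 of the 24 members with a Usp7 WT mean under 0.5 TPM, in 10 of the 18 between 0.5 and 10 TPM, and in 2 of the 8 at 10 TPM or above. Of those 24, only the 4 that passed the minimum through their Usp7 cKO libraries were tested. The minimum thus shapes this split, and the share of all genes in the same bands was not counted.

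The sequences just upstream of the annotated starts are shown for 4 of the members called higher: Bhlhe23 and Mesp2, which were low in Usp7 WT cortex; Hes6, an abundant member; and Tal1, whose start-side exons held no more reads in Usp7 cKO than in Usp7 WT. Each run is the 250 bases before a RefSeq start on GRCm38.p6, written 5′ to 3′ on the gene's strand, with the E-box CANNTG in capitals.
Bhlhe23, chr2:180776901-180777150, minus strand: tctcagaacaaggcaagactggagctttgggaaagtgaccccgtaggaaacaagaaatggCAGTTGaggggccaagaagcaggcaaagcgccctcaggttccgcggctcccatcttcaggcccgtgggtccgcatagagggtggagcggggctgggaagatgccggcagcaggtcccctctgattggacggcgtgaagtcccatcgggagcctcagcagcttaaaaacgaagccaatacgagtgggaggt
Mesp2, chr7:79810477-79810726, plus strand: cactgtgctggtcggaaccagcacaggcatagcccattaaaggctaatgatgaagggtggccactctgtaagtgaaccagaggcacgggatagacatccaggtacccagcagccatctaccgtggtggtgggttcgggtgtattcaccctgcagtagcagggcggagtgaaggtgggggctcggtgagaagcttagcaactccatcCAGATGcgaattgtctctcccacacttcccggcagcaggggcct
Hes6, chr1:91414039-91414288, minus strand: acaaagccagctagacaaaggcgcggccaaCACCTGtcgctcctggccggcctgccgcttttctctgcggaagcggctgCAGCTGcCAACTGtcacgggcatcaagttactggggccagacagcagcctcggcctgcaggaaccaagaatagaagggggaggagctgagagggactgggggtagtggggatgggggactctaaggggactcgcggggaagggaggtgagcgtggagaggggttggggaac
Tal1, chr4:115057561-115057810, plus strand: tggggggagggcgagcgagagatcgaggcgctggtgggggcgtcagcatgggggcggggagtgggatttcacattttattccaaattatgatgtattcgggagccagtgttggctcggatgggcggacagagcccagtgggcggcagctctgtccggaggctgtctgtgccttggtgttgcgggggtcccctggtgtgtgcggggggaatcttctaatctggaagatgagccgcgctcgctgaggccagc
The Hes6 window held 3 E-boxes, 1 of them CAGCTG. The exon bin at this start held only 0.183% of the Hes6 bin counts in WT and 0.103% in cKO. The window before another Hes6 start, chr1:91413223-91413472, is not shown and held 1 E-box, CAGCTG. Bhlhe23 and Mesp2 held 1 each, and the Tal1 window held none. CANNTG is palindromic and was matched in any overlap, and 66.2% of the 32851 promoter windows of this length held it. For 36 members with 39 windows in the table, 61.5% of windows held it, CACGTG was in 5.13% (6.02% of all windows) and the Hes-type N-box CACNAG, searched on both strands, in 28.2% (36.7% of all). Members' windows had a median GC content of 60.0%, against 52.4% over all windows.

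Among 14 proneural and neuronal differentiation factors, 3 were called higher and 10 lay under the minimum. Bhlhe23 (ENSMUSG00000045493, chr2:180774381-180776900, GRCm38), a factor known from retinal interneurons, measured 0.446, 0.159, 0.201, 0.223 and 0.475 TPM in Usp7 WT replicates 1 to 5 and 11.3, 13.5, 10.7, 13.7 and 9.71 TPM in Usp7 cKO replicates 1 to 5. The groups were far apart, and the 10 libraries never overlapped. The log2 change was 3.95 (SE 0.164, limma adjusted p = 5.35e-07), and raw bin counts went from 38 in 5 WT libraries to 1288 in 5 cKO libraries. Neurog2 (chr3:127633135-127635631), which drives neuronal fate in the embryonic cortex, measured 3.67, 4.24, 3.93, 2.55 and 3.16 TPM in Usp7 WT and 8.08, 8.10, 12.5, 7.84 and 8.01 TPM in Usp7 cKO. The groups did not overlap, and cKO replicate 3 stood above the other cKO libraries. The log2 change was 1.22 (SE 0.155, adjusted p = 6.91e-04). Atoh7 (chr10:63099651-63101279), the factor that makes retinal ganglion cells competent, measured 2.49, 1.76, 2.88, 2.21 and 2.77 TPM in Usp7 WT and 6.88, 5.71, 6.25, 4.55 and 4.71 TPM in Usp7 cKO. All cKO libraries exceeded all WT libraries, and the log2 change was 1.07 (SE 0.159, adjusted p = 0.00174). Atoh8 reached 2.90 TPM in WT and 4.50 TPM in cKO (log2 0.58, adjusted p = 0.0750), short of the threshold.

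Below the minimum, 6 proneural members had at least 1 library at 0.5 TPM or above. Nhlh2 measured 0.0974 TPM on average in WT and 0.449 TPM in cKO, with no overlap between groups, and it was called higher when no minimum was applied (log2 0.66, adjusted p = 0.0157). Neurog1 averaged 0.171 and 0.536 TPM, also without overlap, but missed the threshold (adjusted p = 0.0919 with no minimum). Neurod4 averaged 0.516 TPM in WT and 0.343 TPM in cKO, the only member whose cKO libraries all lay below its WT libraries (adjusted p = 0.259 with no minimum). Ascl2 averaged 0.296 and 0.669 TPM, Ferd3l 0.114 and 0.692 TPM with cKO replicate 2 at 1.87 TPM, and Nhlh1 0.495 and 0.381 TPM. Atoh1, Neurog3, Olig3 and Ptf1a stayed below 0.5 TPM in every library.

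**Figure D2:**
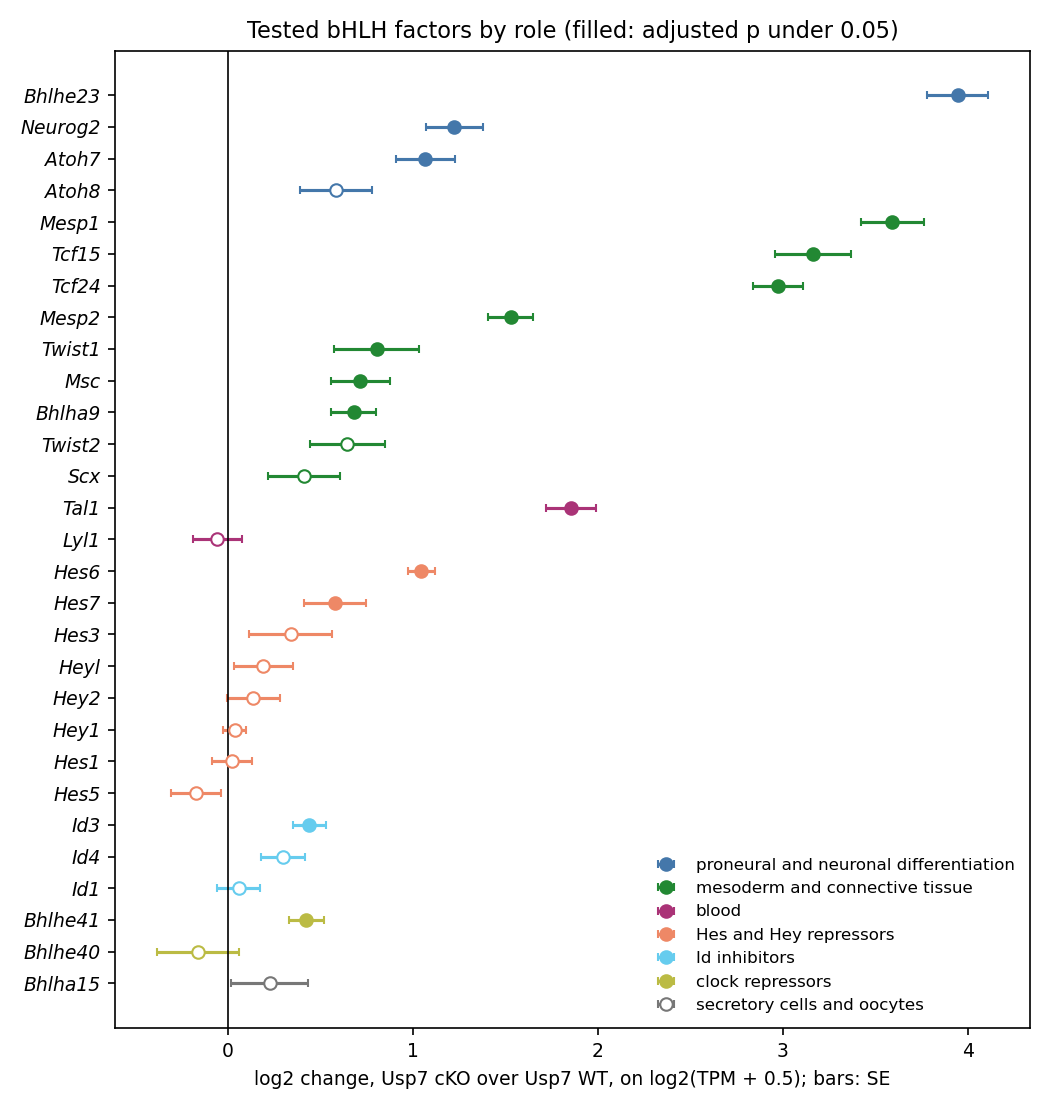
Log2 change from Usp7 WT to Usp7 cKO on the log2(TPM + 0.5) scale (horizontal axis) for the 29 tested members, coloured by role, with SE bars and filled points where the limma adjusted p was under 0.05. Bhlhe23, Mesp1, Tcf15 and Tcf24 lie furthest to the right, and the 3 points left of 0 are unfilled.

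Of 13 mesoderm and connective tissue factors, 9 were tested and 7 were called higher. Mesp1, Tcf24 and Twist2 were tested only because of their Usp7 cKO libraries, and 2 of these 3 are among the 7. With no minimum 6 of the 13 were called higher, beside 5.18% of all genes. Mesp1 (ENSMUSG00000030544, chr7:79792241-79793788), which marks the earliest cardiac mesoderm, measured 0.0980, 0.180, 0, 0.265 and 0.221 TPM in Usp7 WT and 5.75, 8.59, 9.92, 6.15 and 6.76 TPM in Usp7 cKO. The cKO values lay far above the WT range, from 9 raw bin counts in the 5 WT libraries to 435 in the 5 cKO libraries, and the log2 change was 3.59 (SE 0.170, adjusted p = 9.71e-07). Its divergent neighbour Mesp2 (chr7:79810727-79813439), a somite segmentation factor, measured 1.29, 1.09, 1.34, 1.33 and 1.38 TPM in Usp7 WT and 4.75, 5.31, 3.90, 4.39 and 4.95 TPM in Usp7 cKO. The groups were well separated (log2 1.53, SE 0.122, adjusted p = 3.58e-05). Tcf15 (chr2:152143561-152149097), the paraxial mesoderm factor paraxis, measured 0.829, 0.584, 1.42, 1.61 and 1.65 TPM in Usp7 WT and 12.1, 15.9, 16.7, 15.2 and 12.6 TPM in Usp7 cKO. The lowest cKO library was above the highest WT library, and the log2 change was 3.16 (SE 0.205, adjusted p = 9.48e-06).

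Tcf24 (ENSMUSG00000099032, chr1:9960163-9967932) measured 0.164, 0.205, 0.151, 0.349 and 0.168 TPM in Usp7 WT and 5.36, 5.62, 4.66, 5.54 and 4.13 TPM in Usp7 cKO. All cKO libraries were above all WT libraries, and raw bin counts went from 38 to 926 (log2 2.97, SE 0.137, adjusted p = 8.37e-07). Its 2 exon bins on the 5′ side, E003 and E004, held reads in 3 and 2 of the 5 WT libraries and in all 5 cKO libraries. Bhlha9 (chr11:76672470-76673676), a limb factor, measured 6.11, 5.12, 5.99, 5.13 and 5.19 TPM in Usp7 WT and 9.01, 10.4, 11.2, 7.39 and 8.03 TPM in Usp7 cKO. The groups did not overlap (log2 0.68, SE 0.122, adjusted p = 0.00488). Msc (chr1:14753346-14755992), the branchial-arch muscle factor musculin, measured 1.94, 1.33, 1.52, 1.70 and 1.44 TPM in Usp7 WT and 3.31, 2.03, 3.52, 2.80 and 3.09 TPM in Usp7 cKO. The lowest cKO library was just above the highest WT library (log2 0.71, SE 0.159, adjusted p = 0.0143), and without both libraries of discordant sex the adjusted p was 0.0933.

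Twist1 (chr12:33957671-33959829), a mesenchymal factor, measured 0.614, 1.02, 0.779, 1.07 and 0.476 TPM in Usp7 WT and 2.30, 2.19, 2.06, 0.930 and 1.45 TPM in Usp7 cKO. The groups overlapped at cKO replicate 4 (log2 0.80, SE 0.231, adjusted p = 0.0448), and the call was lost in 11 of 22 alternative settings. Twist2, next in the family, averaged 0.390 and 0.885 TPM (log2 0.64, adjusted p = 0.0619). Scx, the tendon factor scleraxis, was at log2 0.41 (adjusted p = 0.203), and Hand1, Hand2, Tcf21 and Tcf23 were under the minimum, Tcf23 with 0.412 TPM in WT and 0.381 TPM in cKO. The 2 noncoding genes that overlap Twist2, Gm29100 and Gm29101, were called higher as well (log2 0.92 and 0.86). Strand-specific counting is not given in the sources used here, so reads of overlapping genes cannot be told apart. Among the members called higher this touches Tcf24, overlapped by E330040D14Rik on the opposite strand (0.0572 TPM in WT, 0.661 TPM in cKO), and Bhlhe23, overlapped by Gm14343 on its own strand (0 and 0.104 TPM). It also touches Msc, Hes7 and Bhlhe41, whose opposite-strand overlapping genes Gm9947, 9130213A22Rik and Gm43909 were not called.

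Of the 3 blood factors, Tal1 was called higher and Lyl1 was not. Tal1 (chr4:115056426-115071755), the hematopoietic factor SCL, measured 1.30, 1.14, 1.49, 1.52 and 1.79 TPM in Usp7 WT and 6.48, 7.57, 6.81, 6.48 and 5.37 TPM in Usp7 cKO. The groups were far apart, and the log2 change was 1.86 (SE 0.135, adjusted p = 2.02e-05). The extra reads of Tal1 lay in part of its length. Its first 5 exon bins, the noncoding start-side exons, held 41 counts in the 5 WT libraries and 29 in the 5 cKO libraries, while the last 6 held 265 and 1379. As CPM (counts scaled to each library's bin total), the first 5 bins were at 0.170 ± 0.0803 in WT and 0.122 ± 0.0858 in cKO, and the last 6 at 1.08 ± 0.132 and 5.90 ± 0.842. This split was noticed after the bin values were seen and has no test of its own, and the start-side bins were too thin for the exon-usage test.

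**Figure D3:**
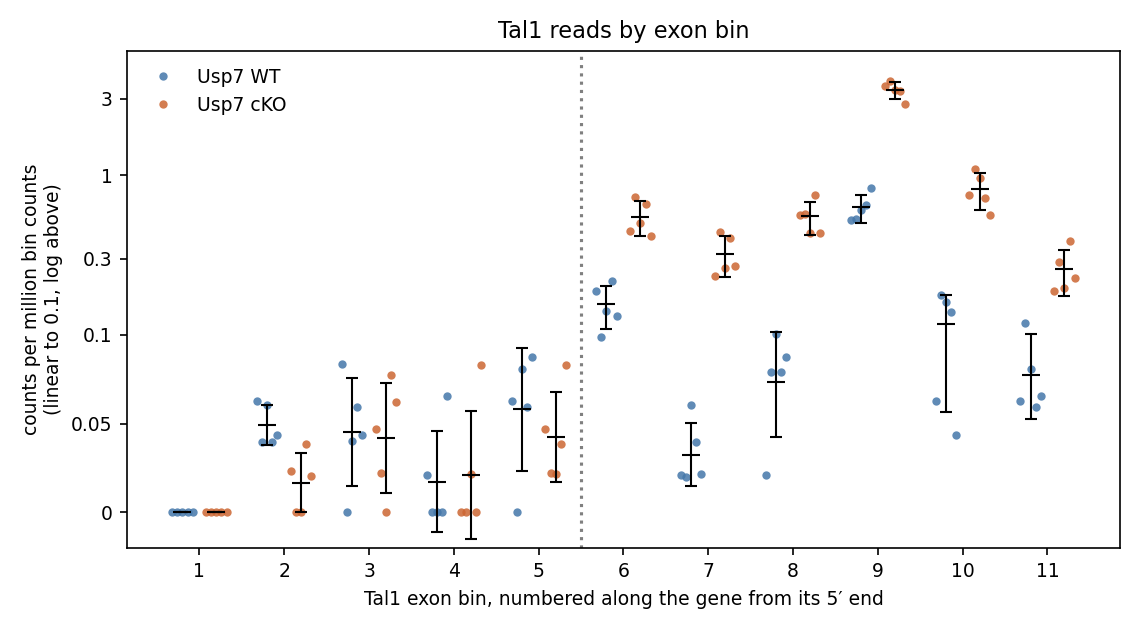
CPM of each Tal1 exon bin, numbered from the 5′ end (horizontal axis), with 1 point per library and black mean and SD, on an axis that is linear to 0.1 and logarithmic above. Left of the dotted line, bins 1 to 5 have 29 cKO counts against 41 in WT; bins 6 to 11 hold 1379 against 265.

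Lyl1, the close relative of Tal1, averaged 6.65 and 6.47 TPM (log2 -0.06, adjusted p = 0.816), and it overlaps Nfix on the opposite strand, which fell by 0.34 on the log2 scale (adjusted p = 0.0216). Tal2 stayed below 0.5 TPM in every library. The 4 muscle factors Myf5, Myf6, Myod1 and Myog were under the minimum. Myod1 averaged 0.169 TPM in WT and 0.623 TPM in cKO, with an adjusted p of 0.0731 with no minimum and 0.0452 by DESeq2. Of the 2 factors known from secretory cells and oocytes, Bhlha15 gave log2 0.22 (adjusted p = 0.533), and Figla was under the minimum.

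Of the 9 Hes and Hey repressors, 2 were called higher. Hes6 (chr1:91411483-91414038), which opposes Hes1 and favours differentiation, measured 15.9, 15.0, 13.7, 15.9 and 18.5 TPM in Usp7 WT and 28.7, 34.9, 35.7, 32.5 and 33.5 TPM in Usp7 cKO. The groups were separated by more than the whole WT range, and the log2 change was 1.04 (SE 0.0734, adjusted p = 1.64e-05). Hes7 (chr11:69120404-69124055), the segmentation clock repressor, measured 1.24, 1.39, 1.30, 1.18 and 0.935 TPM in Usp7 WT and 1.65, 3.06, 2.34, 1.58 and 1.83 TPM in Usp7 cKO. The cKO values were all above the WT values, but the call was just inside the threshold (log2 0.58, SE 0.169, adjusted p = 0.0478) and was lost in 17 of 22 alternative settings.

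None of the 3 abundant Notch effectors was called. Hes1, the main neural Notch effector, measured 11.7, 13.8, 15.2, 16.2 and 14.0 TPM in Usp7 WT and 15.8, 14.3, 16.9, 12.9 and 12.2 TPM in Usp7 cKO (log2 0.02, SE 0.108, adjusted p = 0.918). The groups overlapped throughout. Hes5 measured 10.7, 11.9, 13.3, 11.9 and 16.3 TPM in WT and 10.4, 9.30, 11.6, 10.8 and 14.5 TPM in cKO (log2 -0.17, SE 0.136, adjusted p = 0.451). Hey1 measured 47.1, 41.4, 44.9, 43.7 and 51.6 TPM in WT and 48.5, 48.5, 44.9, 45.7 and 46.2 TPM in cKO (log2 0.03, SE 0.0623, adjusted p = 0.762), and both genes' groups overlapped. For Hey1 the one informative intron cluster had a cryptic 5′ splice site in 2.85% ± 0.967 of its reads in WT and 4.97% ± 1.40 in cKO (exact permutation test, two-sided, p = 0.0317, n = 5 against 5). That rests on 23 and 41 cryptic reads, and the exact permutation p was 0.0635, 0.0635 and 0.0714 without WT replicates 1, 3 and 5. Hes3, Hey2 and Heyl had log2 changes of 0.34, 0.14 and 0.19, with adjusted p from 0.360 to 0.580, and Hes2 was under the minimum.

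**Figure D4:**
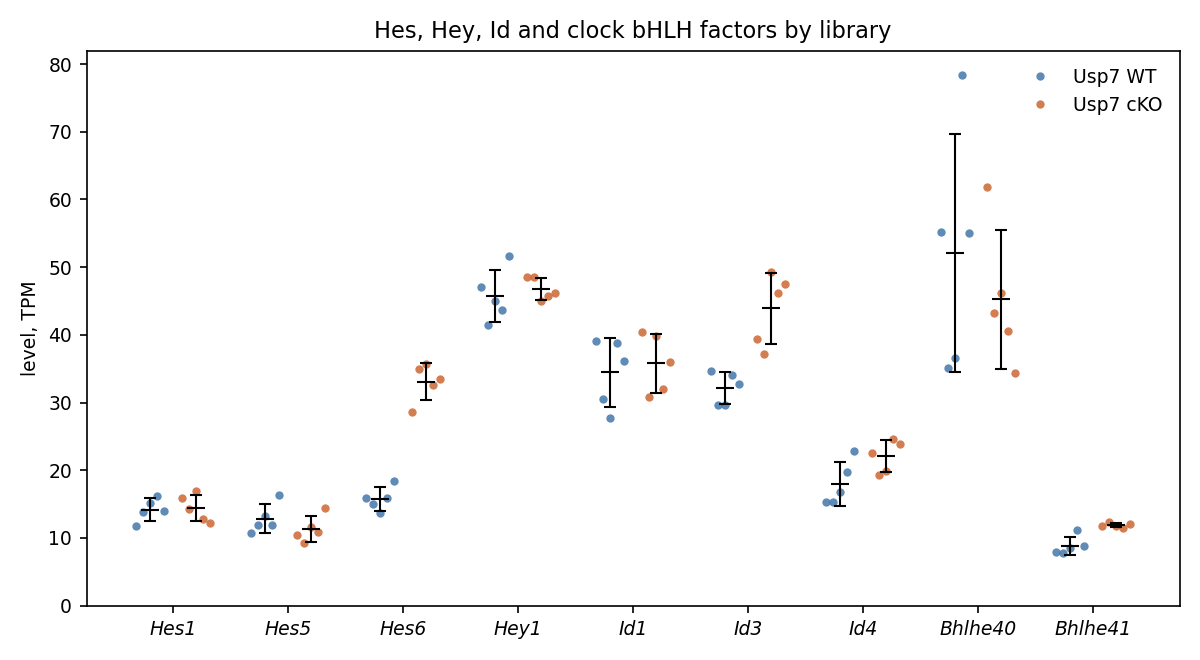
Level in TPM (vertical axis, linear from 0) of 9 Hes, Hey, Id and clock members, with 1 point per library, blue for Usp7 WT and orange for Usp7 cKO, and black mean and SD (n = 5 each). Hes6, Id3 and Bhlhe41 separate by genotype, while Hes1, Hes5, Hey1, Id1, Id4 and Bhlhe40 overlap, with Bhlhe40 the widest (34.4 to 78.4 TPM).

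Id3 was the 1 Id inhibitor of 3 that was called. Id3 (chr4:136143497-136145755), a BMP-induced inhibitor of E proteins, measured 34.6, 29.7, 29.6, 34.1 and 32.8 TPM in Usp7 WT and 39.4, 37.2, 49.3, 46.2 and 47.5 TPM in Usp7 cKO. The groups did not overlap, and the log2 change was 0.44 (SE 0.0892, adjusted p = 0.00928). Id1 measured 39.1, 30.5, 27.8, 38.8 and 36.2 TPM in WT and 40.4, 30.8, 39.8, 32.0 and 36.1 TPM in cKO, fully overlapping (log2 0.06, SE 0.117, adjusted p = 0.797). Id4, an inhibitor known from glia and neural progenitors, measured 15.4, 15.3, 16.8, 19.7 and 22.9 TPM in WT and 22.6, 19.3, 19.9, 24.6 and 23.9 TPM in cKO. Its groups overlapped through WT replicates 4 and 5 (log2 0.30, SE 0.119, adjusted p = 0.131), and without WT replicate 5 the adjusted p was 0.0126.

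Of the 2 clock repressors, Bhlhe41 (Dec2) was called higher and Bhlhe40 (Dec1) was not called. Bhlhe41 (chr6:145858243-145865558) measured 7.88, 7.80, 8.52, 11.1 and 8.75 TPM in Usp7 WT and 11.7, 12.4, 11.8, 11.5 and 12.1 TPM in Usp7 cKO. The cKO libraries lay in a narrow band just above WT replicate 4 (log2 0.42, SE 0.0953, adjusted p = 0.0156), and without both libraries of discordant sex the adjusted p was 0.0700. As CPM of summed bin counts, the Bhlhe41 groups overlapped (10.4 ± 1.94 in WT and 14.3 ± 0.654 in cKO). Bhlhe40, the most abundant of the 50 in Usp7 WT, measured 55.2, 35.0, 36.6, 78.4 and 55.1 TPM in WT and 61.8, 43.3, 46.2, 40.5 and 34.4 TPM in cKO. The groups overlapped almost completely (log2 -0.16, SE 0.221, adjusted p = 0.680), and the difference between the changes of the 2 factors was not tested.

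Usage of exon bins within a member, apart from its level, was tested for 23 members with enough reads by edgeR on the bin counts. None was called, where 2.85% of 13954 genes were, and 0 of 23 had an unadjusted p under 0.05. In the authors' deposited table, 1 of 144 member bins had an adjusted p under 0.05: the Bhlhe40 bin chr6:108663046-108664478, part of a retained-intron transcript, with a log2 change of 0.77 and an adjusted p of 0.000703. The same bin gave log2 0.76 and an unadjusted p of 0.0702 by edgeR (adjusted p = 1.0). It held 153 counts over the WT libraries and 218 over the cKO libraries.

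The nearest protein-coding gene on each side of the 15 called members, leaving out other members, gave 27 genes, of which 23 were tested. Of these 23, 3 were called higher and 0 lower, with a median change of 0.05. Of the 15232 tested protein-coding genes 12.6% were called higher and 7.0% lower, with a median of 0.04, so the neighbours' share of higher calls was close to that background. Aloxe3, an epidermal lipoxygenase gene beside Hes7, rose from 2.06 to 7.10 TPM (log2 1.57, adjusted p = 2.11e-05). Trpa1, a sensory ion channel gene beside Msc, had a log2 change of 0.64 (adjusted p = 0.0223), and Rpl11, a ribosomal protein gene beside Id3, one of 0.30 (adjusted p = 0.0168). The tested neighbours of Bhlhe23, Tcf15, Tcf24 and Tal1 were not called.

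**Figure D5:**
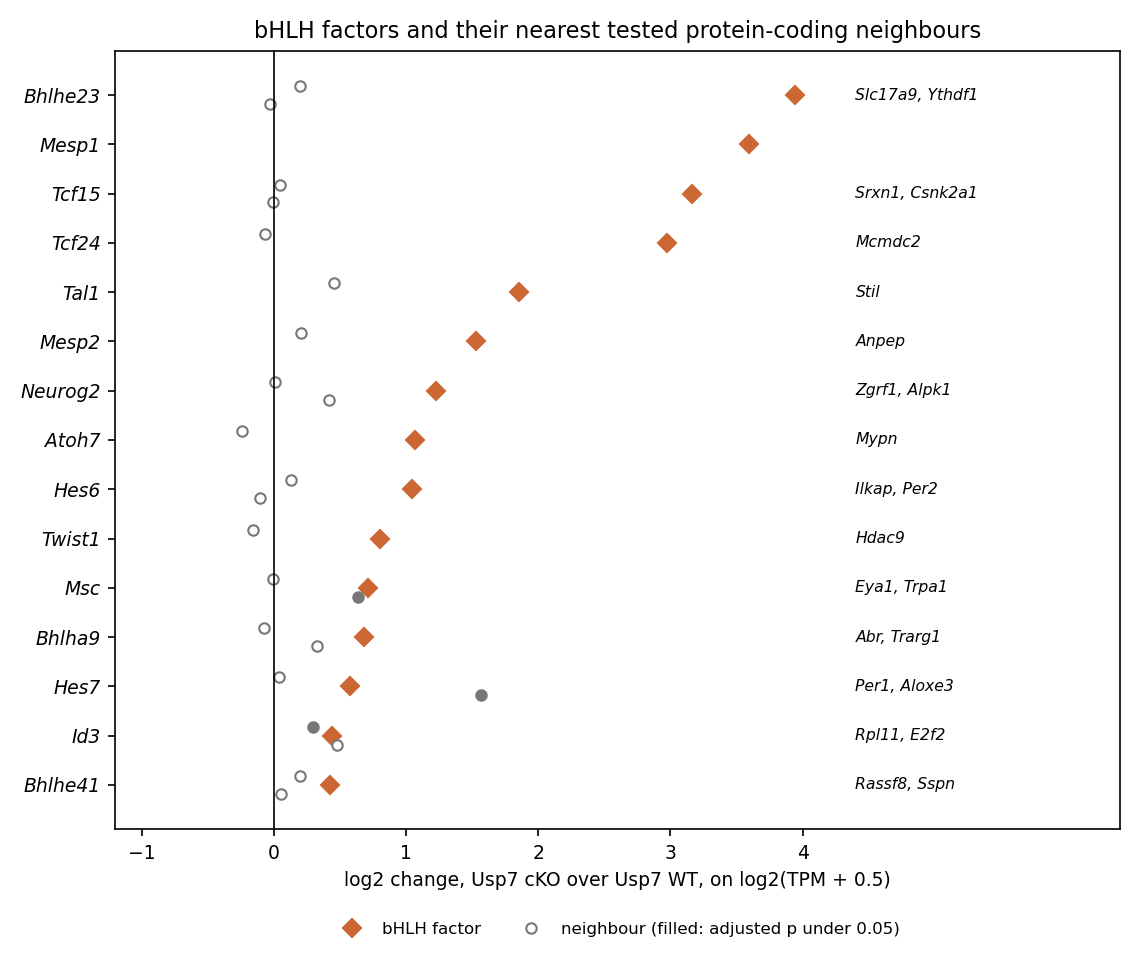
Log2 change (horizontal axis) of each of the 15 called members, as orange diamonds, and of its tested protein-coding neighbours, as circles filled where the adjusted p was under 0.05, with the neighbours named at the right in order of position. Most circles lie near 0, and the filled ones are Trpa1 beside Msc, Aloxe3 beside Hes7 and Rpl11 beside Id3.

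Other bHLH genes were called in both directions, beside 9.22% of all tested genes called higher and 4.67% called lower. Of the tested protein-coding genes 12.6% were higher and 7.0% lower. The counts in these lists are small and are not read as a result about bHLH genes. Of 15 further tissue-specific bHLH genes measured, 10 were tested, and 1 was higher and 2 lower (median change 0.06, the same as all tested genes). Tcfl5, a testis-enriched factor, rose from 2.10 to 12.7 TPM (log2 2.35, adjusted p = 5.79e-06). The 2 lower genes were Neurod6, whose own locus carries NEX-cre (log2 -1.10), and Neurod2 (log2 -0.23). Among the 3 E proteins Tcf3 was higher (log2 0.32) and Tcf4 and Tcf12 were not called. Of 17 tested bHLH-PAS genes Npas3 was higher (0.37) and Arnt2 lower (-0.44), and of 21 tested leucine zipper bHLH genes Mycl (0.48) and Srebf1 (0.40) were higher and Usf2 lower (-0.21).

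Pathway genes around the members were read as counts. Beside these lists and the marker lists below, 9.22% of all tested genes were called higher and 4.67% lower, with a median change of 0.06. For tested protein-coding genes alone the shares were 12.6% and 7.0%. In the Notch pathway 8 of 37 genes were higher and 2 lower (median 0.11), led by the ligands Dlk1 (log2 1.93), Dll1 (0.62) and Dll3 (0.90) and by the coactivator Maml2 (0.40). In the BMP pathway, which induces Id genes, 6 of 30 tested genes were higher and 2 lower (median 0.05): Gdf7, a roof-plate ligand, rose from 3.01 to 13.6 TPM (log2 2.05), and the signal transducers Smad9 and Smad1 rose by 0.44 and 0.37 on the log2 scale. Of 13 tested partners and targets of proneural factors 5 were higher and 1 lower (median 0.41), with Dll1, Dll3 and Gadd45g (0.58) higher and Tbr1 lower (-0.59). Of 10 tested partners of Tal1 and Lyl1, the bridging proteins Lmo1 (0.85), Lmo2 (0.69) and Ldb1 (0.26) were higher and none lower (median 0.18). Among the 20 clock genes, with a median of 0.06, those called included Nr1d1, higher (0.22), and Rorb, lower (-0.68). Of 11 tested muscle genes downstream of the MyoD family, Cdh15 (1.89 TPM in WT, 4.37 TPM in cKO), Acta1 (log2 0.41) and Des (0.70) were higher and Mef2c lower (-0.42), with a median of 0.12.

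Cell type markers moved with genotype as well, and their part in the members' changes was not tested. Glutamatergic neuron markers were lower in 9 of 10, with a summed level of 7637 to 8923 TPM in WT and 4367 to 5455 TPM in cKO, and Nrgn alone averaged 4640 and 2391 TPM of it. Neurod6, Nrgn, Slc17a7 and Tbr1 had the smallest p. Microglia markers were lower in 9 of 10, at 382 to 431 and 262 to 303 TPM, led by Csf1r, Tmem119, Ctss and C1qb (log2 -0.50, -0.70, -0.69 and -0.51). Cerebellum and hindbrain markers were higher in 4 of 6 tested (Cbln1, Pax2, Cbln3 and En2), at 23.2 to 24.9 and 42.7 to 47.5 TPM. Most of that sum was Cbln1, at 17.2 and 35.7 TPM, while Pcp2 and Zic1 were not called and Gabra6, En1, Hoxb2 and Hoxb3 were under the minimum. Progenitor and dividing-cell markers were higher in 4 of 9 tested (Hopx, Nes, Insm1 and Pax6), at 95.8 to 123 and 124 to 152 TPM. Dentate gyrus and hippocampus markers were higher in 3 of 8 (Dsp, Calb2 and C1ql2), at 135 to 161 and 170 to 195 TPM, and astrocyte markers in 3 of 10 (Atp1b2, Sox9 and Gfap), at 2713 to 3069 and 2593 to 3151 TPM. Beside the mesoderm and blood factors, none of the 10 endothelial, 10 mural and 10 meningeal fibroblast markers was called, nor any of the 6 blood markers. Their summed levels overlapped between genotypes: 133 to 191 and 134 to 214 TPM for endothelium, 146 to 187 and 159 to 213 TPM for mural cells, 70.5 to 110 and 86.0 to 113 TPM for fibroblasts, and 632 to 852 and 696 to 866 TPM for blood. Skeletal muscle markers, beside the low MyoD factors, went both ways in 6 tested: Acta1 and Des were higher and Actn3 lower (2.40 and 1.42 TPM). Their sum, 27.0 to 33.3 TPM in WT and 36.5 to 42.1 TPM in cKO, was mostly Acta1 (23.6 and 31.4 TPM). Oligodendrocyte precursor markers were higher in 2 of 8 (C1ql1 and Lhfpl3), GABAergic neuron markers lower in 1 of 10 (Pvalb), and oligodendrocyte, striatum and choroid plexus markers were not called.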

How the data were processed

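Cortex RNA of 10 mice (5 per genotype) had ribosomal RNA removed and was reverse transcribed from random primers, per the labels' protocols. Build GRCm38 and the tools SAMtools 1.10, featureCounts, Subread and STAR 2.7.9a come from the submitters' processing notes. Whether counting used strand, and which gene lengths, is not given in the sources used here. The gene table holds TPM, computed by the authors per library, which keeps no depth. The exon-bin table holds raw counts, a log2 fold change and adjusted p-values of exon usage, deposited by the authors and made with DEXSeq per the file headers. The intron table holds deposited counts per intron, and in Usp7 WT replicate 1 all of them were even and were divided by 2.

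The members and lists were chosen with earlier results of these data known. Repeated gene lines were counted once. limma 3.58.1 (R 4.3.3; trend, robust) was fitted to log2(TPM + 0.5) of genes averaging 0.5 TPM or more, with labelled sex as covariate, two-sided, and a threshold of 0.05 after Benjamini-Hochberg adjustment over all genes; fold changes on this scale understate changes of low genes. Exon usage was tested with edgeR 4.0.16 (diffSpliceDGE, Simes) on bins with a mean count of at least 10 in genes with at least 2 such bins. edgeR and DESeq2 1.42.0 were also run on bin counts summed per gene. Other alternatives changed the pseudocount, minimum, scaling, covariate, replicate block and libraries. The pipeline was tested on simulated data. Positions are from GENCODE M21 and promoters from RefSeq, both GRCm38. Each library is labelled as a separate mouse sample.

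Values per library are given for members that limma called or that averaged at least 10 TPM in either genotype; members under the minimum are named where a library reached 0.5 TPM. From each other list up to 4 called genes with the smallest p are named (2 are not reported here), with Usp7 and Neurod6 as checks and the nearest protein-coding neighbours of called members. The trailing numbers of the library titles are used as a replicate block only as an alternative.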

Additional observations from a re-analysis of the deposited data

Results flagged for a closer look

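In 7 of 58 groups of 5 libraries, covering the tested members in each genotype, 1 library lay apart from the other 4 by more than 0.71 of the group's range; chance marks about 1 group in 20. Neurog2 was 12.5 TPM in Usp7 cKO replicate 3, with the next cKO library at 8.10 TPM. Heyl was marked in both genotypes, at 5.52 TPM in Usp7 WT replicate 1 and 3.20 TPM in Usp7 cKO replicate 1. Bhlhe41 was 11.1 TPM in Usp7 WT replicate 4, with the next WT library at 8.75 TPM. Tcf24 was 0.349 TPM in the same WT library. Twist2 was 0.700 TPM in Usp7 WT replicate 3. Atoh8 was 3.33 TPM in Usp7 cKO replicate 2, below the other cKO libraries.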

How the results depend on the processing

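Members called higher numbered 15 and ranged from 11, without both libraries of discordant sex, to 19, by DESeq2; leaving out each library in turn gave 13 to 15. Members called lower were 0 in every setting run. Over all genes, 3832 were called, with 2180 without both libraries of discordant sex, 6453 by edgeR and 6589 by DESeq2, and 2794 to 3588 when 1 library was left out. With the level of the sex-linked transcript Xist as covariate, 3016 genes were called. Of those calls 56.0% were higher, against 66.4% in the main fit. Between genotypes, deviations from the group means correlated at -0.016 to 0.092 (median 0.07, 9 combinations) for libraries with equal title numbers and at -0.093 to 0.034 (median -0.0285, 16 combinations) for unequal ones. Equal numbers thus ran slightly higher. Each combination of title number and labelled sex occurred equally often in both genotypes. The labels do not say whether the number marks a litter, so it was used only as an alternative block. With the replicate block on the title number 4391 genes and 15 members were called higher or lower, and with the block and sex together 3654 genes and 14 members. Of the 15 called members, 11 kept their call under all 22 alternatives (Atoh7, Bhlhe23, Neurog2, Bhlha9, Mesp1, Mesp2, Tcf15, Tcf24, Tal1, Hes6 and Id3). Msc and Bhlhe41 lost it only without both libraries of discordant sex, Twist1 in 11 settings and Hes7 in 17. For Twist1 and Hes7 the cause was not tested. No called member changed direction in any setting run. TPM keeps no depth, and with 9 to 38 raw counts over the 5 Usp7 WT libraries the WT levels of Mesp1, Bhlhe23 and Tcf24 are imprecise. The Hey1 intron share differed by 1.74 to 2.50 percentage points when 1 library was left out, an alternative chosen after seeing the data.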

Other observations

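Bhlhe40 was highest, in each genotype, in the library whose title ends in the number 1. The libraries with number 1 measured 78.4 TPM (Usp7 WT) and 61.8 TPM (Usp7 cKO). Those with number 2 ranged from 55.1 to 55.2 TPM in WT and from 34.4 to 46.2 TPM in cKO, and those with number 3 from 35.0 to 36.6 TPM and from 40.5 to 43.3 TPM. Per1, a clock gene beside Hes7, was also highest for number 1, at 141 TPM in WT and 130 TPM in cKO, with 114 to 121 and 97.9 to 117 TPM for number 2 and 81.5 to 87.0 and 98.9 to 107 TPM for number 3. In cKO the ranges for numbers 2 and 3 overlapped for both genes. Among the other clock genes, Nfil3 and Hlf were also highest for number 1 in each genotype. Nfil3 measured 18.2 TPM in WT and 16.7 TPM in cKO, and no library with another number exceeded 15.6 TPM. Hlf measured 99.5 TPM in WT, against at most 98.8 TPM, and 110 TPM in cKO, against at most 105 TPM. Not every clock gene shared the pattern. Per3 was lowest for number 1 in WT (24.0 TPM, against 26.9 to 36.0 TPM). Per2 at number 1 (41.4 TPM) lay inside the WT range of number 2 (38.8 to 44.8 TPM). The labels do not say what the number stands for, and the pattern was seen in the data and not tested.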
